A study of Homo sapiens with 8 samples.

Results

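Respiratory complex I is the NADH dehydrogenase of the mitochondrial inner membrane, and its subunits are encoded by 2 genomes. Its members were taken here by gene symbol, as the NDUFA, NDUFAB, NDUFB, NDUFC, NDUFS and NDUFV genes with a number, without the NDUFAF assembly factors, together with MT-ND1 to MT-ND6 and MT-ND4L. Described here are 43 of these members, among 13546 genes in the count table, 36 of them nuclear and 7 mitochondrial. NDUFA7, a supernumerary subunit of the matrix arm, is not among the rows and was not analysed here. The 36 nuclear members are spread over 18 chromosomes.

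The RNA came from tumours that MDA-MB-231 cells, an established human line of triple-negative breast cancer, formed in nude mice. The injected cells were labelled CDK4KO (4 libraries) or CDK4WT (4 libraries), and both are the same line in the same kind of host. CDK4 is the cyclin D-dependent kinase of the G1 phase, and the series asks about its part in the cytoskeleton and contractility. The labels give neither how CDK4 was disrupted, nor how many clones were injected, nor which mouse each tumour came from. The p-values therefore speak only of spread among these 8 libraries, which may be technical. A numbered tumour below means the library of that number, and the labels do not say whether each library is a separate tumour.

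Library totals were 27840000 to 33620000 counts, so that counting error is small for all but the lowest members. CDK4 mRNA itself stood at 111, 119, 125 and 134 CPM (counts scaled to library size) in CDK4KO tumours 1 to 4, against 115, 107, 116 and 112 CPM in CDK4WT tumours 1 to 4 (edgeR's test described below, log2 fold change 0.12 ± 0.06 (SE), adjusted p = 0.477). The mRNA level is therefore no check of the genotype labels. The mean correlations of a library to its own group were 0.985, 0.988, 0.989 and 0.986 in CDK4KO libraries 1 to 4, all lower than the 0.992 to 0.995 of the CDK4WT libraries, and CDK4KO libraries 1 and 4 were the lowest. Marker genes of host cells were measured in part: summed endothelial markers (7 of 8 measured) were 393 to 458 CPM in CDK4KO and 332 to 373 CPM in CDK4WT tumours. Of these 7, 6 had positive fold changes. ROBO4 (159 CPM in CDK4KO and 110 CPM in CDK4WT on average) and ESAM (160 and 140 CPM) carried the difference in the sum. Both were higher in every CDK4KO than in every CDK4WT tumour, beside 3.87% of all genes (log2 fold changes of 0.54 and 0.19, edgeR adjusted p of 0.0749 and 0.246). PECAM1 (7.80 and 6.15 CPM) stood at 0.34, TEK at 0.21, VWF (0.69 to 1.30 CPM) at 0.13 and KDR at 0.04. TIE1 (61.1 to 96.7 CPM) stood at -0.19. Which cells these transcripts came from was not tested. The summed skeletal muscle markers (2 of 9 measured, ACTA1 and DES) were 3.96 to 8.57 CPM in CDK4KO and 6.85 to 26.2 CPM in CDK4WT tumours. The sums of the other host lists overlapped as well. Macrophage and leukocyte markers (4 of 8 measured) were 17.6 to 20.6 CPM in CDK4KO and 15.5 to 27.0 CPM in CDK4WT tumours. Fibroblast and pericyte markers (5 of 8) were 684 to 1180 and 777 to 1194 CPM. Adipocyte markers (2 of 6) were 2.95 to 4.21 and 2.98 to 4.89 CPM. In bulk tumours, fewer cells of a type and less RNA per cell cannot be told apart.

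Complex I takes electrons from NADH, passes them along iron-sulfur clusters to ubiquinone, and couples this to proton pumping. The peripheral arm in the matrix holds the nuclear-encoded core subunits that bind NADH and quinone, while the proton-pumping core of the membrane arm is encoded by mitochondrial DNA, and supernumerary subunits encoded in the nucleus surround both. The mitochondrial genes are transcribed as long precursors that are later divided into single mRNAs, whereas each nuclear gene has its own promoter, and tumours are known to vary in how far they rely on respiration.

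The contrast of the genomes begins with these sequences. MT-ND4L and MT-ND4 are carried on a single mature mRNA and share 7 bases on the heavy-strand transcript, shown in capitals below (hg38, plus strand, chrM:10727-10766 for the end of MT-ND4L and chrM:10760-10799 for the start of MT-ND4). They are printed because MT-ND4L had the lowest fold change of the mitochondrial members and MT-ND4 was the member whose genotypes did not overlap.
MT-ND4L end: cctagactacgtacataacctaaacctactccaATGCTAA
MT-ND4 start: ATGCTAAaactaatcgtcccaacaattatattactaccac

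The nuclear members share no transcript, and their promoters were compared by motif. RefSeq promoter windows on GRCh38.p14, from 250 bases before to 50 bases after the start, were matched for 31 of the 36 nuclear members. The letters GCGCNNGCGC, a core of the NRF1 motif, were present in 22.6% of the 31 windows, against 15.9% of the windows of measured genes and 8.78% of all 27305 windows. CCGGAAG, the ETS motif bound by GABP, was present in 16.1% of members and 19.2% of measured genes. AAGATGG, a core of the YY1 motif, was present in 19.4% of members and 7.60% of measured genes. Both strands were searched, and CCGGAAG and AAGATGG can overlap by AAG. A match is a match of letters, not a binding site. The windows below, the 120 bases before the RefSeq start, are of 3 of the 4 members that hold more than 1 match to the NRF1 or the ETS motif in the whole window, with the matches in these 120 bases in capitals. The fourth, NDUFA8, has 2 NRF1 matches in its whole window and 0 in these 120 bases, and is not printed. The capitals mark NRF1 in NDUFA3 (chr19:54102735-54102854, plus strand) and NDUFB4 (chr3:120596216-120596335, plus strand), and GABP/ETS on either strand in NDUFS3 (chr11:47578954-47579073, plus strand).
NDUFA3: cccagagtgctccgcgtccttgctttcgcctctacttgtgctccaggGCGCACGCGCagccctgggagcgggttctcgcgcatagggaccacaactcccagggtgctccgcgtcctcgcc
NDUFB4: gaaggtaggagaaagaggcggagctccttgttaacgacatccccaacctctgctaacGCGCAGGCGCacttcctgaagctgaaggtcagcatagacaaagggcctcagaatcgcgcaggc
NDUFS3: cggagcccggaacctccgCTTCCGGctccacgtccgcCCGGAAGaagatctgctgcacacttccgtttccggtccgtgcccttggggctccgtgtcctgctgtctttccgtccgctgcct

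Complex I mRNA differed little between the genotypes. None of these 43 members passed edgeR's quasi-likelihood test, 0 of 43 at an adjusted p of 0.05 where 0.0591% of all genes tested did (8 of 13546). At that share 0 is the usual count for 43 genes. The smallest adjusted p was 0.272, for NDUFC2. At an unadjusted p under 0.05 there were 4 members, against 13.0% of all genes, with 3 lower in CDK4KO tumours (MT-ND4L, NDUFB5 and NDUFB6; 6.33% of all genes) and 1 higher (NDUFC2; 6.64% of all genes). DESeq2 and limma voom with library quality weights each called 0 of the 43, where they called 2.33% and 2.10% of all genes. In 3 members the genotypes did not overlap in CPM, against 7.68% of all genes. Of these, 2 were lower in CDK4KO (NDUFB5 and MT-ND4; 3.81% of all genes) and 1 was higher (NDUFC2; 3.87% of all genes).

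Fold changes are given as log2, CDK4KO minus CDK4WT. They were negative in 30 of 43 members, against 48.8% of all genes, and 41 of 43 lay within 0.2 of 0. The share of all genes within 0.2 was not taken, so that count does not set the members apart from other genes. The median was -0.04 over the nuclear members (24 of 36 negative) and -0.09 over the mitochondrial members (6 of 7 negative), beside 0.00 over all genes tested. Standard errors ran between 0.05 and 0.20. In the heat map by tumour and the plot of fold changes by role, single members and single tumours stand out more than the genotypes do.

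**Figure D1:**
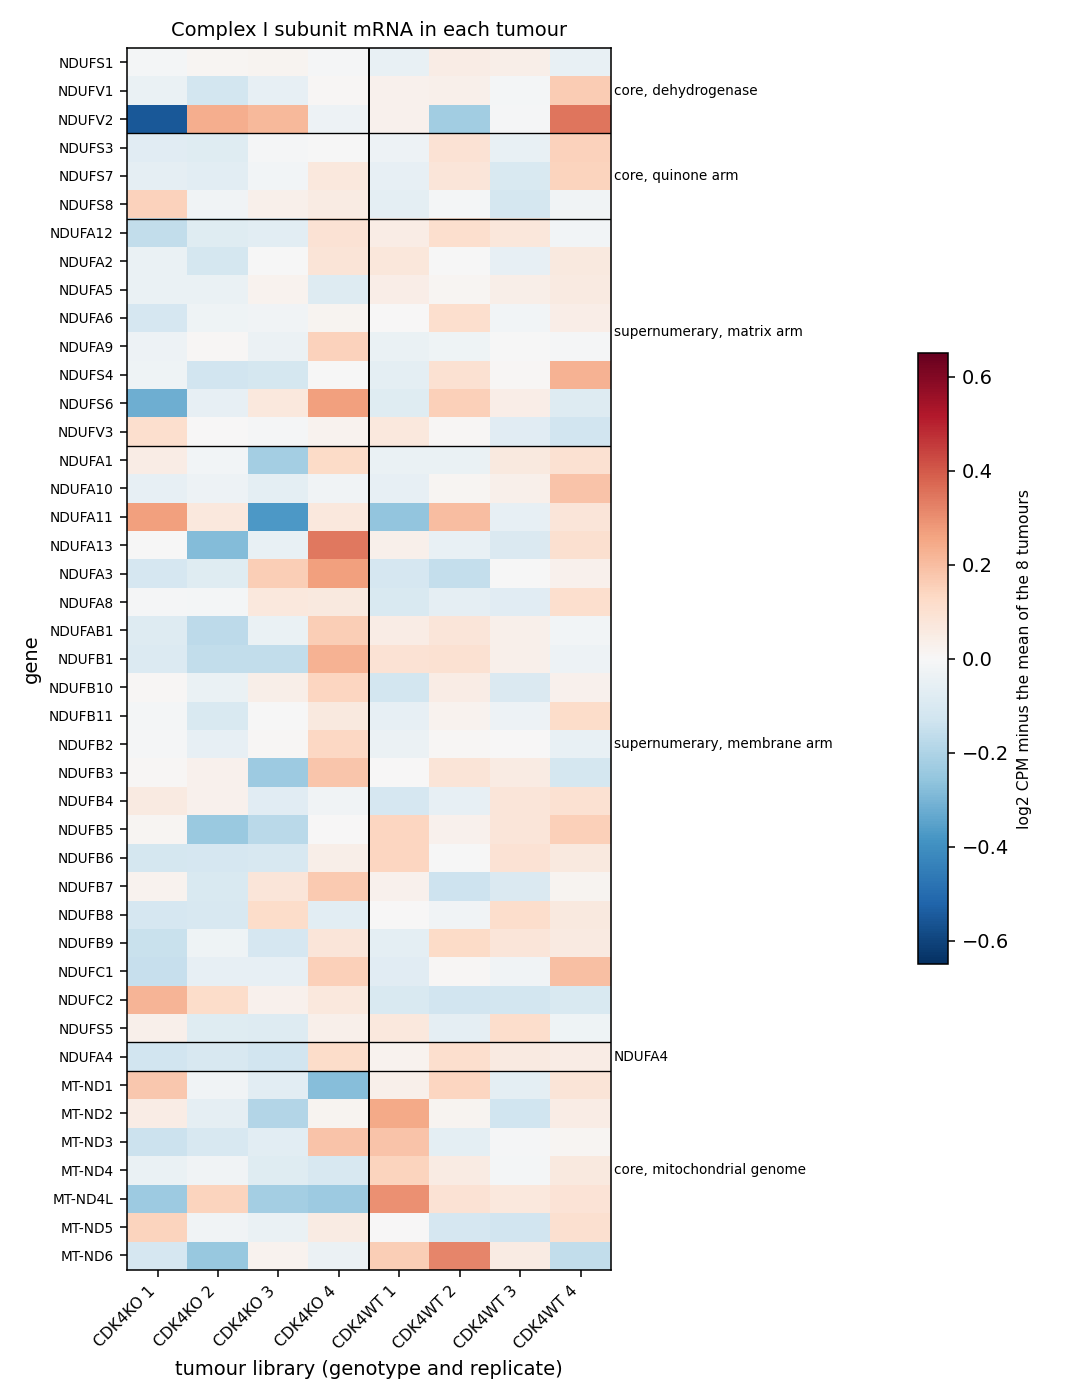
Level of each complex I mRNA (rows, by structural role) in each tumour (columns, 4 CDK4KO then 4 CDK4WT), as log2 CPM minus the mean of the 8 tumours, where red is higher and blue lower. CDK4KO tumour 4 is above the median of the 8 tumours in 30 of 36 nuclear genes, and CDK4WT tumour 1 in 7 of 7 mitochondrial genes.

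**Figure D2:**
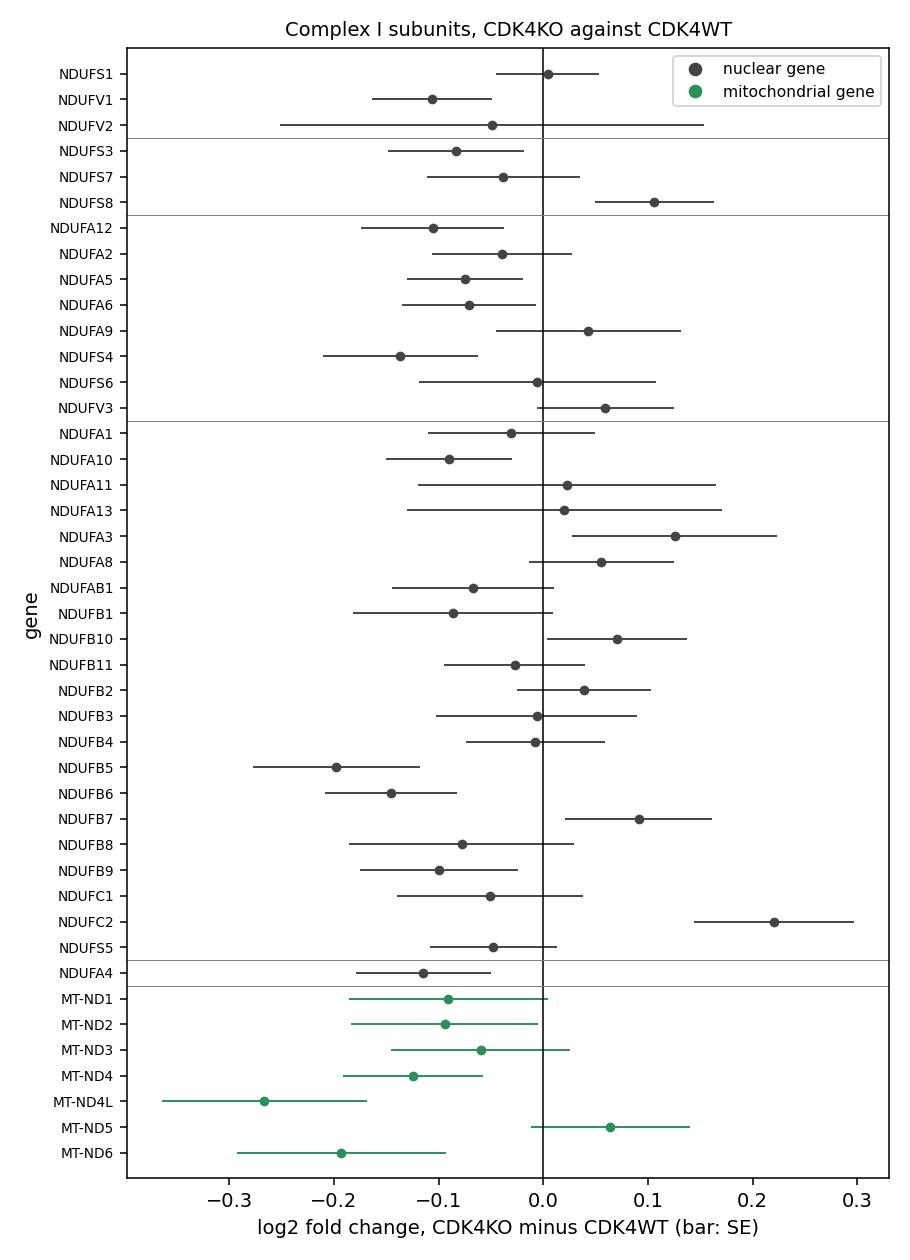
Log2 fold change of each member, CDK4KO minus CDK4WT (points; bars are the SE), by structural role and with nuclear genes in grey and mitochondrial genes in green. Most points lie within 0.2 of 0, with MT-ND4L lowest at -0.27 and NDUFC2 highest at 0.22.

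The core subunits of the peripheral arm that take up electrons from NADH differed little. NDUFV1, which binds NADH and FMN (ENSG00000167792, chromosome 11, 67605653 to 67612554), had 134, 127, 133 and 139 CPM in CDK4KO tumours 1 to 4 and 141, 141, 137 and 155 CPM in CDK4WT tumours 1 to 4. Only CDK4KO tumour 4 overlapped the CDK4WT range (-0.11 ± 0.06, SE; edgeR adjusted p = 0.464). NDUFS1, the largest core subunit and a carrier of iron-sulfur clusters (chromosome 2, 206114817 to 206159603), had 120, 122, 123 and 121 CPM in CDK4KO and 117, 126, 124 and 117 CPM in CDK4WT tumours. The CDK4KO values lay inside the CDK4WT range (0.00 ± 0.05), and its coefficient of variation over the 8 tumours, 2.49%, was the smallest of the 43 members. NDUFV2, which carries another iron-sulfur cluster (chromosome 18, 9102630 to 9134345), had 1.74, 3.01, 2.96 and 2.50 CPM in CDK4KO and 2.60, 2.18, 2.55 and 3.26 CPM in CDK4WT tumours. Its variation, 18.7%, was the largest of the 43, CDK4KO tumour 1 was the lowest of the 8, and the genotypes overlapped.

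Core subunits of the quinone arm likewise differed little. NDUFS3, a core subunit close to the quinone site whose promoter is printed above, had 39.97, 39.86, 41.76 and 41.96 CPM in CDK4KO and 41.05, 44.9, 40.7 and 46.6 CPM in CDK4WT tumours (-0.08 ± 0.06). NDUFS7, which holds the iron-sulfur cluster that reduces quinone, had 27.8, 27.7, 28.7 and 30.5 CPM in CDK4KO and 27.97, 30.6, 27.1 and 32.0 CPM in CDK4WT tumours (-0.04 ± 0.07). NDUFS8, a ferredoxin-like core subunit, had 71.9, 63.8, 66.3 and 67.1 CPM in CDK4KO and 61.9, 64.3, 59.9 and 63.8 CPM in CDK4WT tumours (0.11 ± 0.06; edgeR adjusted p = 0.461). In each of these 3 the genotypes overlapped, and NDUFS8 had the highest single value in CDK4KO tumour 1.

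None of the 8 measured supernumerary subunits of the matrix arm, which stabilise the peripheral arm, passed edgeR's test or reached an unadjusted p under 0.05. Of all genes, 0.0591% passed and 13.0% had such an unadjusted p. DESeq2 and voom called 0 of the 8 at an adjusted p of 0.05, beside 2.33% and 2.10% of all genes. With shares this small, 0 of 8 says little about these members. Fold changes were negative in 6 of the 8. They ranged from -0.14 ± 0.07 for NDUFS4, whose loss in humans causes Leigh syndrome, to 0.06 ± 0.07 for NDUFV3. NDUFA9, which binds NADPH near the junction of the arms, is described with the lowest members.

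In the membrane arm, 3 of 21 supernumerary subunits had an unadjusted p under 0.05, beside 13.0% of all genes. NDUFC2 (ENSG00000151366, chromosome 11, 78068304 to 78080219) had 15.1, 14.1, 13.2 and 13.6 CPM in CDK4KO and 12.1, 11.9, 11.9 and 12.1 CPM in CDK4WT tumours. All CDK4KO tumours lay above all CDK4WT tumours, and the SD of the CDK4WT tumours was 0.107 CPM (0.22 ± 0.08, SE; edgeR adjusted p = 0.272). The annotation has a readthrough gene, NDUFC2-KCTD14, on the same strand, with which 17.1% of the bases of the NDUFC2 transcript are shared, so the counts may be divided between them.

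NDUFB5 (ENSG00000136521, chromosome 3, 179604690 to 179627647) had 21.9, 18.3, 19.2 and 21.7 CPM in CDK4KO and 23.8, 22.1, 22.9 and 24.2 CPM in CDK4WT tumours. The genotypes did not overlap, although CDK4KO tumours 1 and 4 came close to the lowest CDK4WT tumour (-0.20 ± 0.08; edgeR adjusted p = 0.325). NDUFB6 (ENSG00000165264, chromosome 9, 32552999 to 32573184) had 38.1, 38.3, 38.4 and 42.4 CPM in CDK4KO and 45.5, 41.2, 44.0 and 43.2 CPM in CDK4WT tumours (-0.15 ± 0.06; adjusted p = 0.365). CDK4KO tumour 4 was the one that overlapped. The 20 nearest measured genes had a median of -0.05 for NDUFC2, -0.04 for NDUFB5 and -0.09 for NDUFB6, the last with 16 of 20 negative. The other 18 members of this arm ranged from -0.10 for NDUFB9 to 0.13 for NDUFA3.

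NDUFA4 carries a complex I symbol but was later assigned to cytochrome c oxidase, complex IV. It had 91.5, 92.9, 91.6 and 108 CPM in CDK4KO and 101, 108, 104 and 103 CPM in CDK4WT tumours (-0.11 ± 0.06; edgeR adjusted p = 0.491). CDK4KO tumours 1 to 3 lay below the CDK4WT range and CDK4KO tumour 4 just above it.

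The mitochondrial members form the proton-pumping core of the membrane arm. MT-ND4 (chrM 10760 to 12137), an antiporter-like pump subunit, had 6581, 6671, 6408 and 6298 CPM in CDK4KO and 7486, 7018, 6711 and 7081 CPM in CDK4WT tumours. All CDK4KO tumours lay below all CDK4WT tumours, the nearest being CDK4KO tumour 2 and CDK4WT tumour 3 (-0.12 ± 0.07, SE; edgeR adjusted p = 0.465). MT-ND4L (ENSG00000212907, chrM 10470 to 10766), a short subunit next to it on the same mRNA, had 792, 1033, 801 and 793 CPM in CDK4KO and 1147, 995, 980 and 991 CPM in CDK4WT tumours. CDK4KO tumours 1, 3 and 4 lay well below the CDK4WT range and CDK4KO tumour 2 inside it (-0.27 ± 0.10; adjusted p = 0.288). As reads per kilobase, MT-ND4L stood at 0.558, 0.718, 0.580 and 0.584 of MT-ND4 in CDK4KO tumours 1 to 4 and at 0.711, 0.658, 0.677 and 0.650 of it in CDK4WT tumours 1 to 4. The ratio averaged 0.610 ± 0.073 in CDK4KO and 0.674 ± 0.027 in CDK4WT tumours (SD, n = 4 each), and within the CDK4KO tumours it was CDK4KO tumour 2 that stood above the others.

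MT-ND1, which lines the entrance of the quinone channel, had 2555, 2234, 2159 and 1868 CPM in CDK4KO and 2320, 2495, 2168 and 2403 CPM in CDK4WT tumours. CDK4KO tumour 1 held the highest and CDK4KO tumour 4 the lowest of the 8 values (-0.09 ± 0.09). MT-ND2, a pump subunit, had 2030, 1880, 1718 and 1986 CPM in CDK4KO and 2325, 1985, 1793 and 2026 CPM in CDK4WT tumours (-0.09 ± 0.09). MT-ND3, near the junction of the arms, had 573, 587, 603 and 718 CPM in CDK4KO and 717, 604, 628 and 636 CPM in CDK4WT tumours (-0.06 ± 0.09). In both the genotypes overlapped, and MT-ND3 was highest in CDK4KO tumour 4 and CDK4WT tumour 1.

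MT-ND5, the pump subunit at the far end of the membrane arm, was the 1 mitochondrial member with a positive fold change (0.06 ± 0.08). It had 2017, 1800, 1776 and 1895 CPM in CDK4KO and 1831, 1692, 1674 and 1965 CPM in CDK4WT tumours, which overlapped. MT-ND6, the member transcribed from the opposite strand, was also the lowest of the 7, with 42.0, 38.2, 46.1 and 44.2 CPM in CDK4KO and 50.6, 56.5, 47.1 and 40.5 CPM in CDK4WT tumours. CDK4WT tumour 4 lay among the CDK4KO tumours, and the difference did not pass (-0.19 ± 0.10; edgeR adjusted p = 0.443). Whether the library kit or the counting used strand is not stated, so the MT-ND6 counts may hold reads of either strand. Nuclear pseudogene copies are named for every mitochondrial member, 22 to 38 each in GENCODE 29, and how reads that match several places were counted is not given either.

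**Figure D3:**
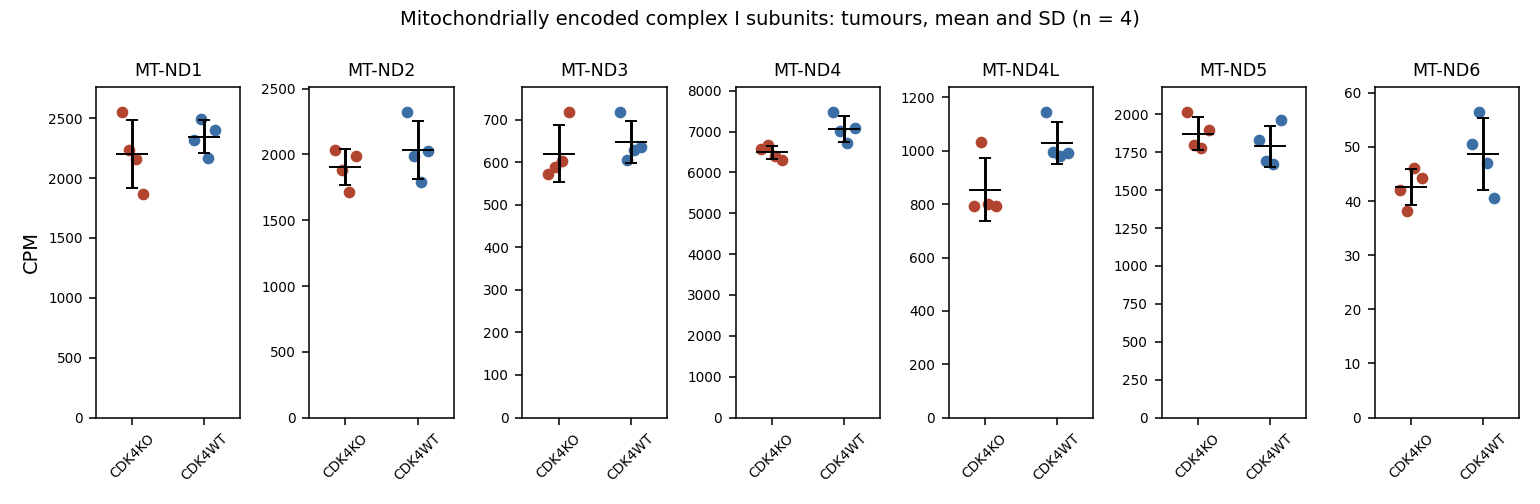
CPM of the 7 mitochondrial members in each tumour (points; 4 CDK4KO left of 4 CDK4WT), with the mean and SD as line and bar, each gene on its own axis from 0. The genotypes separate for MT-ND4, at 6298 to 6671 CPM in CDK4KO and 6711 to 7486 CPM in CDK4WT, and overlap for the others.

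The genomes were then set against each other in each tumour. The mean log2 CPM of the 36 nuclear members was 4.82, 4.81, 4.82 and 4.94 in CDK4KO tumours 1 to 4 and 4.84, 4.88, 4.86 and 4.92 in CDK4WT tumours 1 to 4. CDK4KO tumours 1 to 3 lay just below the CDK4WT range and CDK4KO tumour 4 above it. The mean log2 CPM of the 7 mitochondrial members was 10.02, 9.998, 9.95 and 9.99 in CDK4KO and 10.20, 10.11, 10.01 and 10.08 in CDK4WT tumours, where only CDK4KO tumour 1 overlapped. The nuclear minus mitochondrial difference was -5.20, -5.19, -5.13 and -5.04 in CDK4KO and -5.35, -5.23, -5.15 and -5.16 in CDK4WT tumours. The genotype means of that difference were 0.0823 apart, beside a pooled SD of 0.0833 between tumours of a genotype. For the mitochondrial mean they were -0.110 apart beside 0.0575, and for the nuclear mean -0.0274 beside 0.0502. This SD is the spread of single tumours, not the error of a difference of means.

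As raw shares, the mitochondrial members took 1.42%, 1.42%, 1.36% and 1.40% of all counts in CDK4KO tumours and 1.61%, 1.497%, 1.40% and 1.48% in CDK4WT tumours. The nuclear members took 0.135% to 0.152% in CDK4KO and 0.143% to 0.145% in CDK4WT tumours, so that there were 9.19 to 10.5 mitochondrial counts for each nuclear count in CDK4KO and 9.82 to 11.3 in CDK4WT tumours. Within mitochondrial protein-coding mRNA the MT-ND members took 36.6%, 38.2%, 36.8% and 37.3% of counts in CDK4KO tumours 1 to 4 and 39.4%, 39.5%, 38.7% and 39.4% in CDK4WT tumours 1 to 4. The genotypes did not overlap in that share, and the difference of the means was -2.03 percentage points. It is given as a description, since a value over the members has no test here. Most other per-tumour measures taken here overlapped. MT-ND4, whose genotypes did not overlap, has the most counts of the MT-ND members, so the share is not independent of it. The other mitochondrial protein-coding genes took 2.30% to 2.45% of all counts in CDK4KO and 2.22% to 2.48% in CDK4WT tumours. Skeletal muscle is a host tissue rich in mitochondria, and its 2 measured markers were summed (ACTA1, and DES with the limit given above). The sum was 26.2 CPM in CDK4WT tumour 1, which had the highest mitochondrial mean. It was 6.85 CPM in CDK4WT tumour 3, which had the lowest of its genotype, but 6.36 CPM in CDK4KO tumour 1, which had the highest mean of its own. The other 7 listed muscle genes have no row among the 13546 genes, each of which had over 1 CPM in at least 4 libraries. The part of muscle in the result was not tested.

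**Figure D4:**
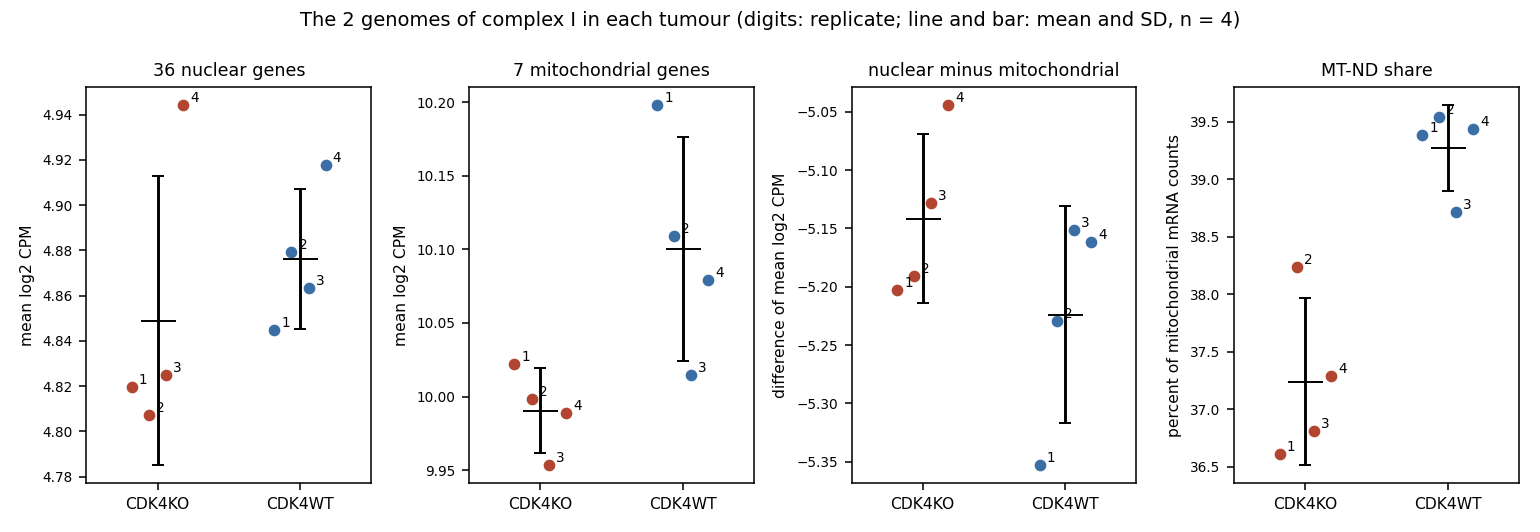
Per tumour (points with the replicate number; CDK4KO left of CDK4WT; line and bar are the mean and SD, n = 4), the mean log2 CPM of the nuclear members, that of the mitochondrial members, their difference, and the percent of mitochondrial protein-coding counts in MT-ND genes; axes do not start at 0. The share in the right panel is 36.6% to 38.2% in CDK4KO and 38.7% to 39.5% in CDK4WT tumours, while the nuclear minus mitochondrial difference overlaps.

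Single tumours moved the nuclear members together. CDK4KO tumour 4 was above the median of the 8 tumours in 30 of 36 nuclear members and the highest of all in 13, and CDK4WT tumour 4 was the highest in 12. CDK4KO tumour 2 was below the median in 30 of 36. Without CDK4KO library 4 the nuclear median was -0.07, against -0.04 with it. The mitochondrial members did not share that order, since CDK4KO tumour 4 was above the median in 3 of 7 and CDK4WT tumour 1 in 7 of 7.

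Levels were compared between genes as RPKM, that is CPM per kilobase of exon. The mitochondrial members had a median of 1889 RPKM and the nuclear members 12.9 RPKM over all 8 tumours. With the length of the principal transcript in place of all exons, an alternative chosen after seeing the data, the nuclear median was 29.02 RPKM, while the 7 mitochondrial members have the same length by either measure. The order among the mitochondrial members was MT-ND4, MT-ND4L, MT-ND1, MT-ND2, MT-ND3, MT-ND5 and MT-ND6, with means of 4922, 3170, 2380, 1889, 1831, 1011 and 86.9 RPKM. MT-ND2 and MT-ND3 did not differ beyond their spread, at 1827 ± 133 and 1793 ± 192 RPKM in CDK4KO and 1950 ± 211 and 1869 ± 142 RPKM in CDK4WT tumours (SD, n = 4 each).

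By the length of all exons, the 3 highest nuclear members were small supernumerary subunits of the membrane arm, NDUFS5, NDUFB7 and NDUFA1. By the length of the principal transcript NDUFS5 and NDUFB7 kept their places, while the core subunit NDUFS8 had rank 3 at 82.0 RPKM (14.3 RPKM by all exons) and NDUFA1 rank 7. NDUFS5 (chromosome 1, 39026318 to 39034636) had 76.5, 71.0, 70.6 and 76.7 CPM in CDK4KO and 78.4, 71.8, 81.1 and 73.4 CPM in CDK4WT tumours, a mean of 137 RPKM over the 8 tumours. NDUFB7 (chromosome 19, 14566078 to 14572062) had 62.4, 57.3, 64.9 and 69.0 CPM in CDK4KO and 62.5, 55.9, 57.5 and 62.1 CPM in CDK4WT tumours, a mean of 116 RPKM. NDUFA1 (chromosome X, 119871487 to 119876662) had 45.2, 43.1, 37.5 and 47.6 CPM in CDK4KO and 42.4, 42.4, 45.6 and 46.8 CPM in CDK4WT tumours, a mean of 57.2 RPKM. In all 3 the genotypes overlapped, with fold changes of -0.05 ± 0.06, 0.09 ± 0.07 and -0.03 ± 0.08.

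At the low end, NDUFA9 (chromosome 12, 4649095 to 4694317) had 8.31, 8.54, 8.29 and 9.44 CPM in CDK4KO and 8.25, 8.35, 8.50 and 8.46 CPM in CDK4WT tumours, a mean of 0.820 RPKM. NDUFA13, also known as GRIM-19 (chromosome 19, 19515736 to 19529054), had 3.90, 3.22, 3.78 and 4.96 CPM in CDK4KO and 4.0, 3.78, 3.66 and 4.20 CPM in CDK4WT tumours, a mean of 1.45 RPKM. NDUFV2, given above, had a mean of 0.959 RPKM. In these 3 genes the genotypes overlapped.

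Annotation moves with these low levels. The lowest nuclear members by CPM (NDUFV2, NDUFA13, NDUFB8, NDUFA9, NDUFA11 and NDUFC2) all share exon bases with another annotated gene on the same strand, from 11.8% of the transcript in NDUFA9 to 82.9% in NDUFV2. The 8 nuclear members with any such share had a median of 9.65 CPM and the 28 without one a median of 34.1 CPM, although NDUFV1 (16.7%) and NDUFS1 (3.31%) were among the highest. NDUFA7, which has no row, shares 75.9%. How reads in shared exons were assigned is not given in the sources used here, and its part in these levels was not tested, so the levels of these 8 genes are uncertain.

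Other genes of the pathway were taken from lists chosen with earlier results of these data known, and no member of them passed edgeR's test at an adjusted p of 0.05. Of 19 assembly factors, which build complex I and are not part of it, 12 were negative with a median of -0.02, and 3 had an unadjusted p under 0.05, all lower in CDK4KO tumours, beside 13.0% of all genes with such a p and 6.33% with such a p and lower. These were TMEM126B, of the assembly complex for the membrane arm (43.3 CPM in CDK4KO and 48.7 CPM in CDK4WT on average; -0.17 ± 0.05), DMAC1 (-0.28 ± 0.10) and NDUFAF7, a methyltransferase (-0.21 ± 0.08). The genotypes did not overlap for TMEM126B and DMAC1, 2 of the 19, beside 7.68% of all genes.

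Of the 6 other mitochondrially encoded proteins 3 were negative. MT-ATP8, a short subunit of ATP synthase encoded on the same mRNA as MT-ATP6, had 65.6, 120, 115 and 113 CPM in CDK4KO and 171, 129, 139 and 154 CPM in CDK4WT tumours (-0.52 ± 0.18; edgeR adjusted p = 0.278). The CDK4KO tumours all lay below the CDK4WT tumours, and CDK4KO tumour 1 was far the lowest. MT-ATP8 was the 1 gene of the 6 without overlap, beside 3.81% of all genes without overlap and lower in CDK4KO. How reads that span it and MT-ATP6 were counted is not given. MT-CYB, of complex III, and MT-ATP6 were at 0.13 ± 0.09 and -0.06 ± 0.07. The rRNA genes MT-RNR1 and MT-RNR2 were at -0.31 ± 0.14 and -0.18 ± 0.13, in libraries made from mRNA.

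Of 13 genes of mitochondrial transcription and DNA maintenance, 6 were negative, and TFB2M, a factor that opens mitochondrial promoters, POLG2, the accessory subunit of the mitochondrial DNA polymerase, and SSBP1, which binds single-stranded mitochondrial DNA, were at -0.27 ± 0.10, -0.24 ± 0.09 and -0.15 ± 0.06. Of 17 genes of mitochondrial RNA processing, 8 were negative. PNPT1, a polynucleotide phosphorylase, was at -0.27 ± 0.08, FASTKD5, which acts on mitochondrial mRNAs that lack flanking tRNAs, at 0.29 ± 0.09 and PRORP, the nuclease of mitochondrial RNase P, at 0.25 ± 0.10. The genotypes did not overlap for 2 of the 13 (POLG2 and SSBP1) and 3 of the 17 (PNPT1, FASTKD5 and LRPPRC), beside 7.68% of all genes. LRPPRC stood at 159 to 206 CPM in CDK4KO and 208 to 213 CPM in CDK4WT tumours (-0.16 ± 0.08; edgeR unadjusted p = 0.0662). Of 9 measured regulators of nuclear respiratory genes, 3 were negative, and NFE2L2 and PPRC1 were at 0.17 ± 0.06 and 0.21 ± 0.08. Apart from LRPPRC, the genes named here had unadjusted p under 0.05 and edgeR adjusted p between 0.193 and 0.340. They were 3 of 13, 3 of 17 and 2 of 9, beside 13.0% of all genes with such an unadjusted p.

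Of the nuclear subunits of complexes II to V, 30 of 38 were negative with a median of -0.07, beside 24 of 36 and -0.04 for the nuclear members of complex I. Negative were 3 of 4 in complex II, 8 of 9 in III, 10 of 10 in IV and 9 of 15 in V. An unadjusted p under 0.05 was reached by 4 of 38, all lower, beside 6.33% of all genes. These were COX7B (-0.41 ± 0.11), SDHC (-0.33 ± 0.10), COX7C (-0.18 ± 0.06) and COX5A (-0.14 ± 0.06). The genotypes did not overlap for 4 of the 38, the same genes, beside 3.81% of all genes without overlap and lower in CDK4KO. A small p makes such a separation likely, so these 2 counts are not independent. Of 6 measured genes that switch respiration in hypoxia, 5 were negative, with a median of -0.17. PDK1, the kinase that keeps pyruvate out of the citric acid cycle, had 46.2, 52.4, 49.7 and 41.5 CPM in CDK4KO and 57.6, 58.4, 70.8 and 81.4 CPM in CDK4WT tumours (-0.50 ± 0.12; edgeR adjusted p = 0.133), without overlap. NDUFA4L2 and COX4I2, the hypoxic counterparts of NDUFA4 and COX4I1, were not analysed here.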

How the data were processed

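RNA-seq of 8 tumour libraries was analysed from a single table of raw counts per Ensembl gene, deposited by the authors without normalization. The submitters' processing notes name cutadapt, STAR 2.7.11a, featureCounts 2.0.4 and DESeq2 1.46.0, with hg38 as the build. No source used here gives the annotation release, the strand setting or what was done with mouse reads, and reads of conserved host transcripts may be included. KO columns were matched to CDK4KO tumours 1 to 4 through the library numbers.

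Each of the 13546 genes had over 1 CPM in at least 4 libraries, so genes below that are not in the table. Symbols were found for 13524 identifiers and GENCODE 29 coordinates for 13455. The comparison used edgeR 4.0.16 in R 4.3.3, with TMM scaling, filterByExpr (which removed 0 genes), robust dispersions, the quasi-likelihood test and Benjamini-Hochberg adjustment over 13546 genes at 0.05. SEs follow from the F statistic. Alternatives used DESeq2 1.42.0, limma 3.58.1 and left-out libraries. RPKM is CPM per kilobase of merged exons, and log2 CPM used a prior count of 2. Counting error is small at these depths, so spread between libraries sets the precision. The steps were tested on simulated data.

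The members and gene lists were chosen with earlier results of these data known. Tumour values are printed for the mitochondrial members, the core subunits, nuclear members with an unadjusted p under 0.05, and the 3 highest and 3 lowest nuclear members by RPKM, and up to 3 genes with the smallest p are named from other lists. NDUFA4, COX7B's pattern by tumour, LRPPRC, COX5A and further endothelial markers were added after their values were seen. Of the members in the table, 1 is not reported here and is in no count over the members.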

Additional observations from a re-analysis of the deposited data

Results flagged for a closer look

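Within a genotype, 8 of 140 groups of 4 values held a tumour set apart from the other 3 by more than Dixon's 95% limit for the gap as a share of the range, where chance gives about 1 in 20. Of these, 5 concerned CDK4KO tumour 4. It had 108 CPM of NDUFA4 (91.5 to 92.9 in the other CDK4KO tumours), 24.0 CPM of NDUFB1 (18.3 to 19.3) and 42.4 CPM of NDUFB6 (38.1 to 38.4). Its mean log2 CPM of the nuclear members was 4.94 (4.81 to 4.82 in the others), and its share of counts in mitochondrial rRNA was 0.471% (0.641% to 0.659%). The other 3 concerned MT-ND4L. It stood at 1033 CPM in CDK4KO tumour 2 (792 to 801 in the others), where MT-ND4L reads per kilobase were 0.718 of those of MT-ND4 (0.558 to 0.584), and at 1147 CPM in CDK4WT tumour 1 (980 to 995).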

How the results depend on the processing

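The medians of the nuclear and of the mitochondrial members and the nuclear minus mitochondrial difference kept their sign under every alternative run and moved by less than the spread between tumours; with each library left out in turn they ranged from -0.07 to -0.02, from -0.15 to -0.08 and from 0.04 to 0.11. The number of members called was 0 of the 43 with edgeR, DESeq2 and voom, with each library left out and without CDK4KO libraries 1 and 4 (chosen after seeing the data). The number of genes called, 8, was 14 with library size only, 18 at a mean of at least 10 CPM (which dropped 4 members), 315 with DESeq2, 285 with voom, 0 to 183 with each library left out (183 without CDK4KO library 1) and 447 without CDK4KO libraries 1 and 4. With the replicate number as a block 13 genes and 0 members were called. Same-number deviations correlated at -0.03, -0.01, 0.00 and 0.19, and only CDK4KO tumour 4 correlated best with its own number. The labels state no pairing, and these correlations cannot settle whether any samples were paired. Over 21 members given by tumour and 18 alternatives, 358 values kept sign and side of the threshold and 17 changed sign, the cause of which was not tested. Those were MT-ND5 at -0.00214 without CDK4KO libraries 1 and 4, NDUFA13 at -0.0571 with voom and -0.160 without these libraries, NDUFS1 at -0.00169 at 10 CPM and -0.00233 with voom, and NDUFV2 at 0.121 with voom and 0.175 without these libraries. With single libraries left out they were NDUFA1 (-0.0784 to 0.0330), NDUFA13 (-0.106 to 0.109), NDUFA9 (-0.00161 to 0.0628), NDUFS1 (-0.0134 to 0.0217), NDUFS7 (-0.0748 to 0.00207) and NDUFV2 (-0.138 to 0.0933). Over the 8 tumours NDUFV2 and NDUFA13 averaged 2.60 and 3.94 CPM, and NDUFS1 averaged 121 CPM.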

Other observations

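COX7B, a small subunit of cytochrome c oxidase on chromosome X that was named after its values were seen, had the lowest adjusted p of the subunits of complexes II to V. It stood at 49.3, 36.4, 34.6 and 48.9 CPM in CDK4KO tumours 1 to 4 and at 56.6, 56.7, 54.6 and 56.8 CPM in CDK4WT tumours 1 to 4 (log2 fold change -0.41 ± 0.11, SE; edgeR adjusted p = 0.190). On the log2 scale relative to the CDK4WT mean this was -0.19, -0.63, -0.70 and -0.20 in CDK4KO tumours 1 to 4. CDK4KO tumours 2 and 3 were the lowest, and the genotypes did not overlap.

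CDK4KO tumour 4 was the lowest CDK4KO tumour for several, but not all, genes of the heavy-strand transcript. MT-RNR2 stood at 4028 CPM there and at 5695 to 5886 CPM in the other CDK4KO tumours, and MT-ND1 at 1868 CPM and 2159 to 2555 CPM. MT-CO1, MT-CO2, MT-CO3 and MT-ND4 were also lowest there, by less, at 9327, 3402, 4238 and 6298 CPM, next to lowest values of 9454, 3449, 4314 and 6408 CPM among the other CDK4KO tumours. MT-ND2, at 1986 CPM, lay within the 1718 to 2030 CPM of the others, and MT-CYB stood at 3618 CPM there and at 2909 to 2997 CPM in the others. As reads per kilobase, MT-ND1 was 1.03 of MT-ND2 in CDK4KO tumour 4 and 1.29 to 1.37 of it in the other CDK4KO tumours, while CDK4WT tumour 1, at 1.09, was below the 1.29 to 1.37 of the other CDK4WT tumours.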
